A study of Oryza sativa with 35 samples.

Results

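The 116 loci described here are the expressed genes of rice chromosome 12 whose transcript levels differed most between DC90 and 9311. They were chosen from the values themselves. A locus of chromosome 12 was taken when its mean FPKM (fragment counts scaled to transcript length and library size) over 35 libraries was at least 0.5 and when log2((D + 1)/(N + 1)) was at least 1 in either direction, where D and N are the means of the 6 timepoint means of DC90 and 9311. Of 4010 chromosome 12 loci in the table, 1223 reached the FPKM minimum and 116 also passed the fold threshold, 64 of them higher and 52 lower in DC90. The difference between the genotypes therefore fixed the membership, and its size is given below as a description, without a test. In these whole-plant samples fewer cells of a type and less RNA per cell cannot be told apart.

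DC90 is a line with a chilling-tolerant locus, CTS-12, of the wild rice Oryza rufipogon in the background of 9311, and 9311 is its chilling-sensitive indica parent. The libraries titled W9 and labelled as chilling tolerant were taken as DC90. Seedlings of both genotypes were 30 days old and were sampled as whole plants before the treatment (0 h), after 12, 24 and 72 h at 10 °C by day and 8 °C by night, and after 12 and 24 h of recovery under normal conditions (84 and 96 h). Each group had 3 libraries, except 9311 at 84 h with 2, and p-values measure the spread between these libraries. Only 1 introgression line was compared, so the wild segment, any other difference of that line and its history cannot be told apart, and the reads of both genotypes were aligned to the annotation of a japonica rice.

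A chromosome segment substitution line is made by crossing a donor to a recurrent parent and backcrossing until only a piece of the donor genome is left. Within that piece every gene carries the donor allele, with the regulatory and coding sequence of the donor, and the rest of the genome is that of the recurrent parent. Rice chromosome 12 is known for clusters of disease resistance genes of the NB-ARC type, intracellular receptors that sense pathogen effectors, and for tandem families of enzymes and many transposon-derived loci.

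Over all 22961 loci at the FPKM minimum, the same fold threshold was passed by 1.26%. On chromosome 12 it was passed by 9.48%, and on the other 11 chromosomes by 149 of 21108 loci (0.706%), with a range over those chromosomes from 0.343% to 1.54%. Higher in DC90 were 0.64% of all loci and lower 0.618%. The depth was 28004101 to 68927044 counts per library. Members were expressed at low levels, with a median FPKM of 2.83 against 7.49 for the 1107 other expressed loci of chromosome 12. The 3 leaf markers (a RuBisCO small chain, RuBisCO activase and a chlorophyll-binding protein) and the 3 root markers (a proline-rich protein, the silicon transporter NIP2-1 and an arsB-like transporter) were above 0 in every library. Some libraries stood apart on members: 9311 at 12 h (all 3) and at 24 h (replicates 2 and 3), 9311 at 84 h replicate 3, and DC90 at 24 h replicate 1. They are described below with the members they touch.

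Members were not spread evenly over the chromosome. In locus order, 108 of the 116 lay between LOC_Os12g04595 and LOC_Os12g36880, a stretch whose ends were read from the members' positions. Its start is not a sharp edge. Just before it, 45 consecutive expressed loci held no member, but 70 did within it, between LOC_Os12g05070 and LOC_Os12g06550. The window of 50 expressed loci from LOC_Os12g05780 held 2% members, and the next, from LOC_Os12g06870, held 16%. This stretch held 680 expressed loci, so 15.9% of its expressed loci were members, 61 higher and 47 lower in DC90. Before it, 6 of 193 expressed loci were members (3.11%). After it, 2 of 350 were members (0.571%), and 239 consecutive expressed loci between LOC_Os12g36880 and LOC_Os12g42190 held no member. The 2 distal members were LOC_Os12g42190, the TCP transcription factor PCF8, at −1.37 on the log2 scale of the rule, and LOC_Os12g43390, a thaumatin-like protein, at −2.32. LOC_Os12g42190 was outside the rule without 12 h and 24 h (−0.97). LOC_Os12g43390 differed in recovery, with 124 to 2468 counts in 9311 and 13 to 150 in DC90. Up to 72 h it had at most 21 counts in 9311 and 43 in DC90. Among the loci that were not members, the median absolute log2 difference was 0.20 within the stretch, 0.15 before it, 0.12 after it and 0.12 on the other chromosomes. The share of these loci with an absolute difference of at least 0.5 was 16.1% within the stretch, 12.8% before it and 3.74% after it, against 3.97% on the other chromosomes.

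**Figure D1:**
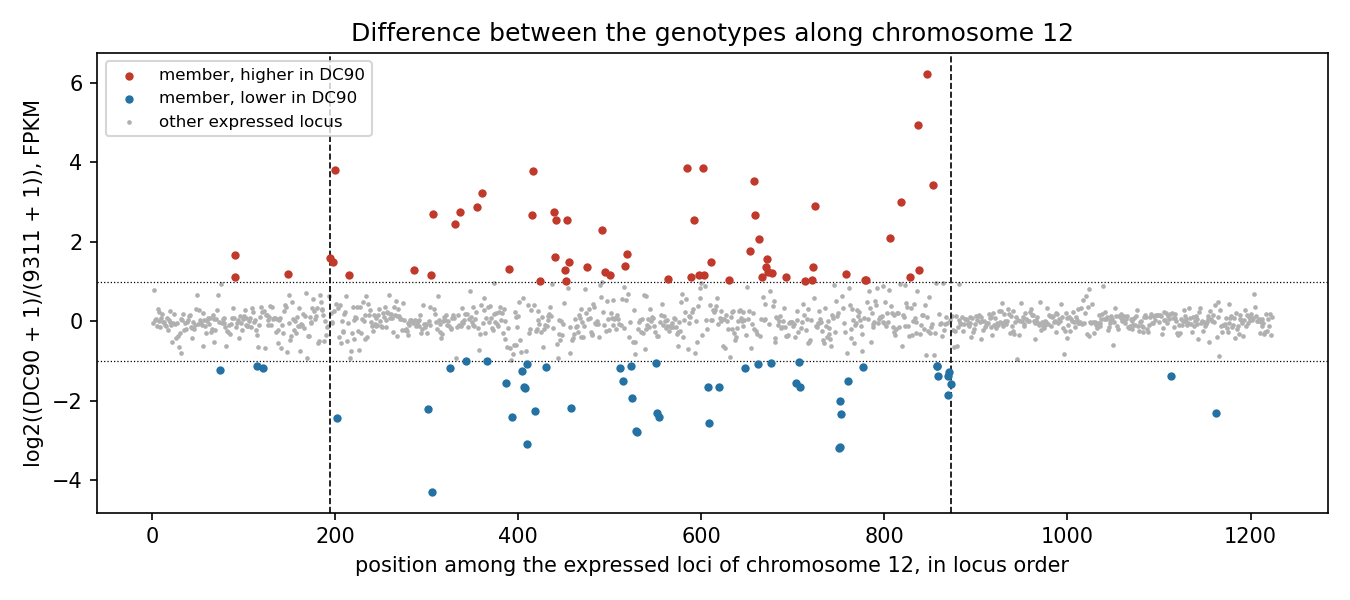
Log2 difference of DC90 over 9311 (FPKM plus 1, y axis) for the 1223 expressed loci of chromosome 12 in locus order (x axis). Red points are the 64 members higher in DC90, blue points the 52 lower ones, grey points the other expressed loci, the dotted lines the fold threshold and the dashed lines LOC_Os12g04595 and LOC_Os12g36880, between which 108 members lie.

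Cut into windows of 50 expressed loci, the chromosome held the most members in the window from LOC_Os12g09590 to LOC_Os12g12390, with 13 (6 higher and 7 lower in DC90). The window from LOC_Os12g26510 to LOC_Os12g30030 followed with 12, of which 10 were higher. In some windows most members shared a direction. All 6 members from LOC_Os12g34460 to LOC_Os12g36180 were higher in DC90, and 7 of the 8 in the next window, LOC_Os12g36194 to LOC_Os12g37590, were lower. Of these 7, LOC_Os12g36830, LOC_Os12g36850, LOC_Os12g36860 and LOC_Os12g36880 were not lower without 9311 at 84 h replicate 3 (0.01 to 0.42). LOC_Os12g36620 (−0.59) and LOC_Os12g36630 (−0.89) left the rule without 12 h and 24 h. The 4 windows after LOC_Os12g37590 held no member. Of 115 pairs of neighbouring members, 71 shared a direction (61.7%), among 64 higher and 52 lower members. The share for members in random order was not computed.

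**Figure D2:**
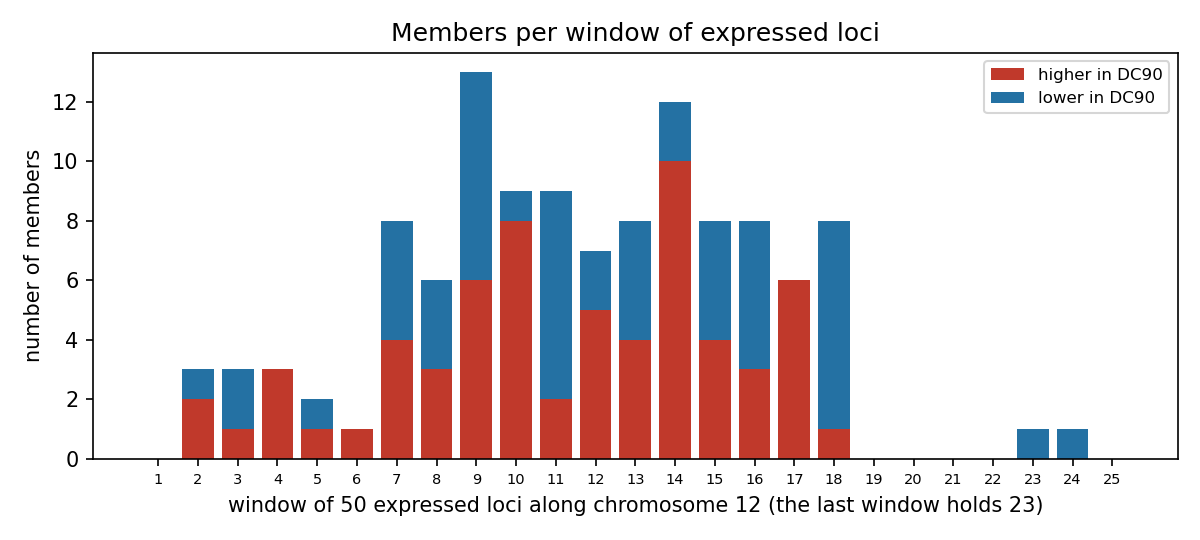
Number of members (y axis) in each window of 50 expressed loci along chromosome 12 (x axis), red for members higher in DC90 and blue for members lower. Window 9 holds 13 members, window 14 holds 12, and windows 19 to 22 hold 0.

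The largest difference was at LOC_Os12g36060, listed only as an expressed protein. Its FPKM ran from 21.5 to 135 with a median of 90.3 over the 18 DC90 libraries, and from 0 to 1.12 with a median of 0 over the 17 libraries of 9311. The genotypes did not overlap, and the log2 difference was 6.23. LOC_Os12g35590, also without a described product, had 17.6 to 55.1 FPKM (median 28.8) in DC90 and 0 to 0.0342 FPKM (median 0) in 9311. No 9311 library held more than 3 of its counts, and against a floor of 3 counts per library it was at least 633-fold higher in DC90. LOC_Os12g34802 had 0.145 to 10.2 FPKM in DC90 and 0 in all 17 libraries of 9311, at least 64.3-fold higher. Its log2 difference was 2.10. Besides LOC_Os12g36060 and LOC_Os12g35590, the 10 highest differences were at LOC_Os12g22145 (3.87), LOC_Os12g20390 (3.86), LOC_Os12g04790 (3.82), LOC_Os12g10290 (3.79) and LOC_Os12g27335 (3.52), none with a described function, and at LOC_Os12g36220 (3.44), LOC_Os12g08025 (3.23) and LOC_Os12g34980 (3.00). LOC_Os12g36220 encodes a subtilisin-chymotrypsin inhibitor, a small protein that blocks serine proteases, and had 2.28 to 55.9 FPKM (median 17.7) in DC90 and 0.0961 to 4.69 FPKM (median 0.889) in 9311, with overlap. LOC_Os12g08025 is described as the transcription factor bHLH153 and had 0.987 to 30.2 FPKM in DC90 and 0 to 0.601 FPKM in 9311, without overlap.

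Among members lower in DC90, LOC_Os12g17090 resembles RPM1, an NB-ARC resistance protein of Arabidopsis. It had 0 to 0.0446 FPKM (median 0) in DC90 and 2.60 to 11.1 FPKM (median 6) in 9311, a log2 difference of −2.77 without overlap. LOC_Os12g30760, a further NB-ARC gene, had 0 FPKM in all 18 DC90 libraries and 0.535 to 4.55 FPKM in 9311, at least 104-fold lower. LOC_Os12g09720, described as GOS9, had 0 to 0.0291 FPKM in DC90 and 0.572 to 15.7 FPKM (median 8.20) in 9311, at least 120-fold lower in DC90. LOC_Os12g32536 had 0 to 0.0126 FPKM in DC90 and 0.147 to 18.6 FPKM in 9311 (at least 310-fold lower). LOC_Os12g17120, a Ty1-copia retrotransposon protein next to LOC_Os12g17090, was at 0 in every DC90 library and at 1.18 to 15.2 FPKM in 9311 (at least 183-fold lower). The remaining members among the 10 lowest differences were LOC_Os12g32390 (−3.19), LOC_Os12g22839 (−2.55), LOC_Os12g04870 (−2.44), LOC_Os12g09190 (−2.42) and LOC_Os12g18729 (−2.42), none with a described function. LOC_Os12g32390 was uneven within 9311, with 1 count in several libraries and 1878 counts in 84 h replicate 3. Its weakest difference with 1 library left out was −2.21.

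**Figure D3:**
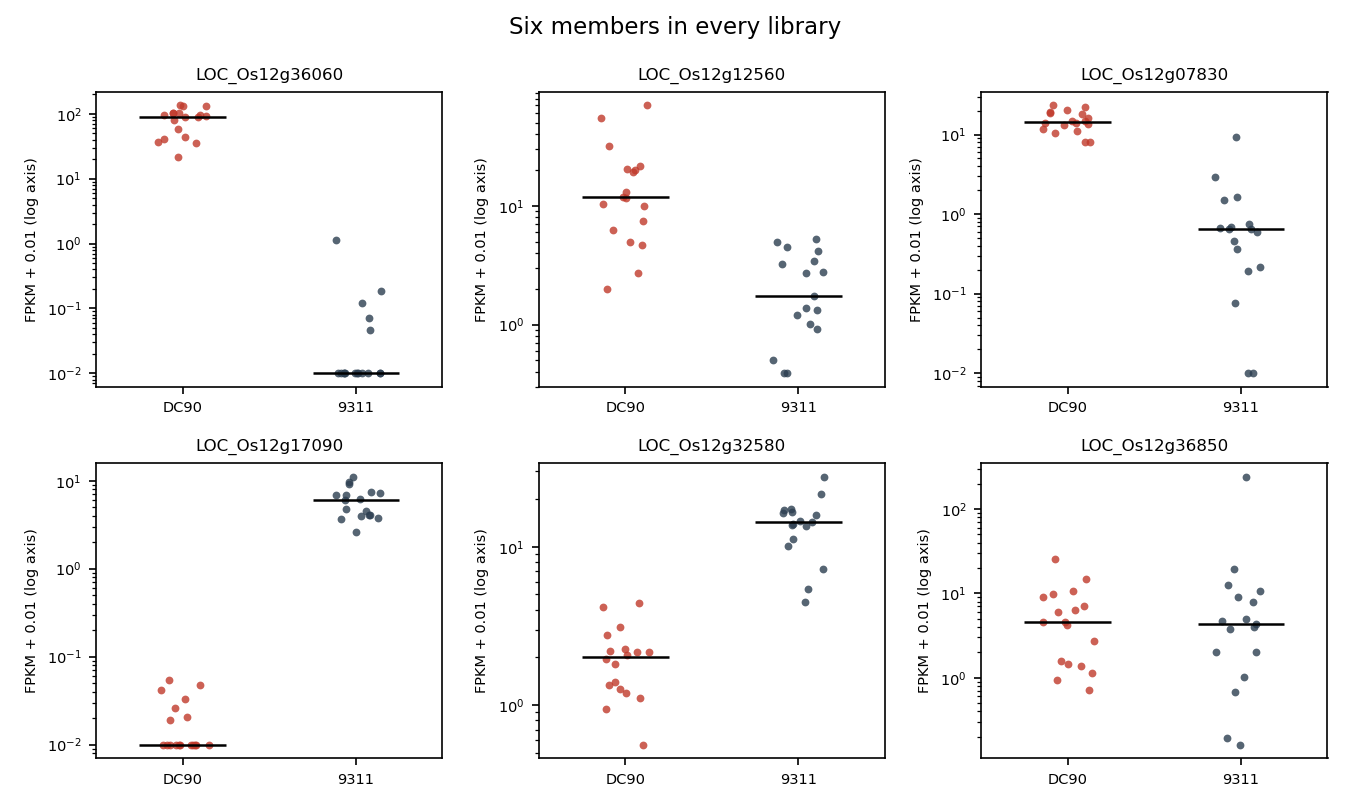
FPKM plus 0.01 on a log axis (y axis) of 6 members in each of the 18 DC90 and 17 libraries of 9311, with the median as a bar. LOC_Os12g36060, LOC_Os12g17090 and LOC_Os12g32580 separate the genotypes, LOC_Os12g12560 and LOC_Os12g07830 overlap in a few libraries, and LOC_Os12g36850 overlaps throughout apart from 1 high 9311 library at 242 FPKM.

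The lowest difference of all, LOC_Os12g07010 at −4.29, belongs to a pair of neighbours that moved in opposite directions. LOC_Os12g07010 is annotated as ribosomal protein L3 of the 60S subunit, and its neighbour LOC_Os12g07020, at 2.69, as a cyclo-ligase of folate metabolism. LOC_Os12g07010 had a median of 0.0359 FPKM in DC90 and 246 FPKM in 9311, whereas LOC_Os12g07020 had medians of 142 FPKM in DC90 and 19.0 FPKM in 9311. The counts of the pair together were 522 ± 111 CPM (counts scaled to library size, SD, n = 18) in DC90 and 464 ± 120 CPM (n = 17) in 9311. The share of those counts on LOC_Os12g07010 was at most 0.0417% in 17 DC90 libraries, 75.5% in DC90 at 24 h replicate 1, and 81.4% to 97.4% in 9311. Without DC90 at 24 h replicate 1, the difference of LOC_Os12g07010 was −7.90. How reads were divided between the neighbours was not tested, and the separate values of both are uncertain. The other adjacent members with opposite directions were LOC_Os12g06990 (1.16) beside LOC_Os12g07010, LOC_Os12g27780 (−1.08) beside LOC_Os12g27840 (2.07), and LOC_Os12g28880 (−1.05) beside LOC_Os12g29220 (1.22). The remaining 26 of 30 adjacent pairs shared a direction.

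The genotypes did not overlap in any library for 37 members, 17 above and 20 below in DC90. Over all expressed loci such separation was found for 0.222% (0.1% above and 0.122% below in DC90), and among the 1107 other expressed loci of chromosome 12 for 1. For 28 of the higher members the median 9311 library held at most 3 counts, and for 17 of the lower members the median DC90 library did. Whether values near 0, and the fold bounds above, come from fewer transcripts or from reads that do not match the japonica annotation was not tested. Some of these 45 were far from all or none. LOC_Os12g06990 had 0 to 157 counts in DC90 libraries and up to 22 in libraries of 9311, and LOC_Os12g27335 had 908 counts in 9311 at 12 h replicate 2, against 667 to 2127 in DC90. An absolute log2 difference of at least 2 was reached by 41 members, 24 higher and 17 lower. The sign of the difference was the same at all 6 timepoints for 100 members. When any 1 library was left out, 92 of the 116 stayed within the rule, and 24 left it for at least 1 library.

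The 28 members near 0 in 9311 were not near 0 in every 9311 library. Their summed counts were 3864 in 9311 at 12 h replicate 2, 1202 at 24 h replicate 2, 851 and 663 at 12 h replicates 3 and 1, and 533 at 24 h replicate 3. The summed counts were 10917 to 25872 in the DC90 libraries, and 12 to 51 in 10 libraries of 9311. The remaining 2 libraries of 9311 had 238 counts (0 h replicate 3) and 126 counts (72 h replicate 2). For the 20 loci from LOC_Os12g08025 to LOC_Os12g28590, a range read from these values, the summed level in 9311 at 12 h replicate 2 was 56.8% of the mean DC90 level of that timepoint, and for the other 8 loci it was 2.59%. The single loci were mixed in both sets. All 20 held over 3 counts, at 6.60% to 166% of their DC90 level (median 29.1%). Of the 8, LOC_Os12g06990 (22 counts, 330%), LOC_Os12g31410 (30 counts, 33.4%) and LOC_Os12g32660 (111 counts, 48.9%) held over 3 counts. LOC_Os12g06990, with only 1 to 10 counts in DC90 at 12 h, thus had a higher percentage than any of the 20. The abundant LOC_Os12g04790, LOC_Os12g35590 and LOC_Os12g36060 held 0. The 20 loci together reached 15.5% at 24 h replicate 2, 13.6% and 10.8% at 12 h replicates 3 and 1, and 6.09% at 24 h replicate 3. LOC_Os12g35590 stayed at most at 0.0342 FPKM in all of these libraries. In the other direction, the 17 members near 0 in DC90 held 1 to 17 summed counts in any DC90 library. LOC_Os12g07010, a lower member not among these 17, held 13879 counts in DC90 at 24 h replicate 1. What put the transcripts of the 28 members into the 9311 libraries, or these counts into that DC90 library, was not tested. Without the 9311 libraries at 12 h and 24 h, 50 members did not overlap, 30 above and 20 below in DC90, against 0.331% of all expressed loci. Without both timepoints in either genotype the rule gave 141 loci, 109 of the 116 among them, with 18 clusters of 75 loci. The values of single members and the classes below include all libraries.

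**Figure D4:**
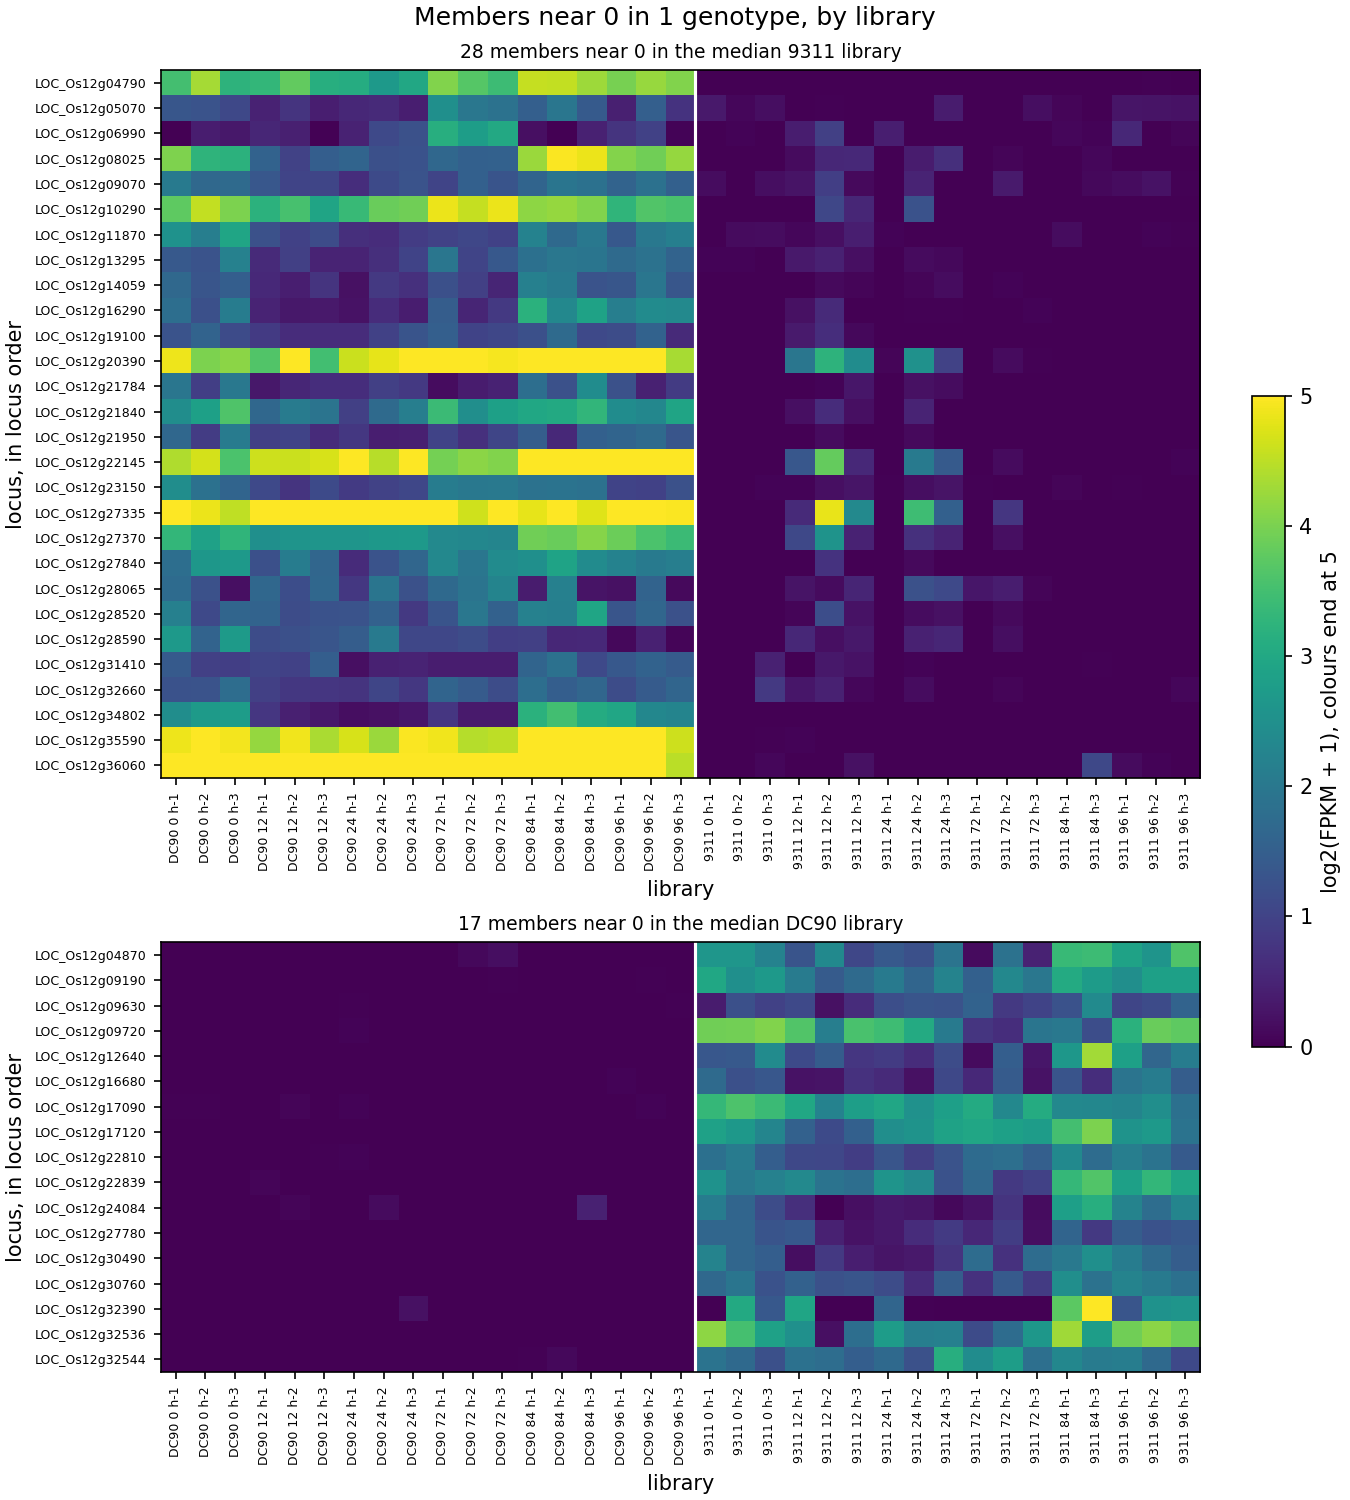
Level, as log2(FPKM + 1) in colour, of the 28 members near 0 in the median 9311 library (top) and of the 17 near 0 in the median DC90 library (bottom), in locus order (y axis), in the DC90 libraries (left of the white line) and those of 9311 (x axis). Signal of the top set is seen in 9311 at 12 h and 24 h, mostly from LOC_Os12g08025 to LOC_Os12g28590 and also at LOC_Os12g31410 and LOC_Os12g32660, strongest in 12 h replicate 2.

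Runs of at least 3 members with at most 2 other expressed loci between neighbours were counted as clusters. There were 17, with 62 members, and the largest had 5 members. Only 2 clusters held members higher in DC90 alone, 5 held lower members alone and 10 were mixed. The cluster from LOC_Os12g12470 to LOC_Os12g12640 held 4 genes described as 2-alkenal reductases, NADPH-dependent enzymes that detoxify reactive carbonyls, and all 4 were higher in DC90. LOC_Os12g12580 had 4.17 to 62.0 FPKM (median 16.7) in DC90 and 1.68 to 16.2 FPKM (median 4.47) in 9311. LOC_Os12g12560 had 1.96 to 70.1 FPKM (median 11.8) in DC90 and 0.378 to 5.20 FPKM (median 1.72) in 9311. LOC_Os12g12470 and LOC_Os12g12514 differed by 1.28 and 1.02 on the log2 scale. The ranges overlapped for all 4, and because tandem copies can share reads, their separate values are uncertain. In the same cluster LOC_Os12g12640, without a described function, had 0 FPKM in all DC90 libraries and 0.110 to 18.7 FPKM in 9311. The isoflavone reductase homologs LOC_Os12g16240 (1.40) and LOC_Os12g16290 (1.69) formed a similar pair of related enzymes, both higher in DC90, in a cluster with LOC_Os12g16200 (−1.50), a chloroplast glutathione synthetase, and LOC_Os12g15680 (−1.17), the laccase LAC24.

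The cluster from LOC_Os12g09630 to LOC_Os12g09770 held 5 members, all lower in DC90. They included LOC_Os12g09630, described as the protein kinase OXI1, at 0 to 0.0195 FPKM in DC90 and 0.165 to 4.24 FPKM in 9311, and the GOS9 gene described above. The cluster from LOC_Os12g32390 to LOC_Os12g32580 held 4 adjacent members, all lower. LOC_Os12g32580, with a domain of small p97-interacting proteins, had 0.553 to 4.37 FPKM (median 2) in DC90 and 4.49 to 27.8 FPKM (median 14.3) in 9311, without overlap. The 2 clusters with higher members alone were LOC_Os12g11830 to LOC_Os12g11980 (3 loci without a described function, led by LOC_Os12g11830 with medians of 10.2 FPKM in DC90 and 0.818 FPKM in 9311) and LOC_Os12g31650 to LOC_Os12g31770. LOC_Os12g31770 had 7.09 to 22.6 FPKM in DC90 and 0 to 8.85 FPKM in 9311. LOC_Os12g18560 to LOC_Os12g18729 and LOC_Os12g36580 to LOC_Os12g36630 were all lower, the last led by LOC_Os12g36630, a universal stress protein, with medians of 14.5 FPKM in DC90 and 48.8 FPKM in 9311.

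The cluster at the distal end of the stretch, LOC_Os12g36830 to LOC_Os12g36880, rested on 1 library. Its 4 members belong to the Bet v 1 family of pathogenesis-related proteins. LOC_Os12g36880 had 2.43 to 89.2 FPKM (median 14.5) in DC90 and 3.92 to 614 FPKM (median 16.8) in 9311, and the value of 614 came from 84 h replicate 3. That library was also the highest for the other 3, at 344 FPKM for LOC_Os12g36830, 242 FPKM for LOC_Os12g36850 and 36.0 FPKM for LOC_Os12g36860. Without it the log2 differences were 0.07 for LOC_Os12g36830, 0.11 for LOC_Os12g36850, 0.01 for LOC_Os12g36860 and 0.42 for LOC_Os12g36880, none within the rule, and the stretch then ended at LOC_Os12g36630. LOC_Os12g02320, a non-specific lipid transfer protein, rested on few libraries too. It had 199, 493 and 681 FPKM in 3 DC90 libraries and 528, 750 and 1721 FPKM in 3 libraries of 9311, and at most 1.10 FPKM in all other DC90 libraries and 0.690 FPKM in all other libraries of 9311. With medians in place of means its difference was 0.88, against −1.23 with means.

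By function, the members were grouped from words in the deposited descriptions, each locus in 1 class. The shares are set against the whole chromosome. Classes were not counted apart for the stretch that held most members, so its gene content may enter these shares. No function was described for 48 members (41.4%), against 18.4% of the expressed loci of chromosome 12, and 21.3% of the undescribed expressed loci were members. Of 24 expressed transposon loci 7 were members (29.2%), 3 higher and 4 lower. Of 26 expressed resistance genes 5 were members (19.2%): LOC_Os12g32660 (1.18) and LOC_Os12g33160 (1.03) were higher, and LOC_Os12g17090, LOC_Os12g30760 (−1.64) and LOC_Os12g10710 (−1.14) were lower in DC90. Kinases had 2 members of 66 (3.03%), and other named functions 21 of 460 (4.57%). Enzymes had 18 members of 197, 11 higher and 7 lower. Transcription factors had 5 members of 77 (6.49%), ribosome and translation genes 3 of 39 (7.69%), and F-box or ubiquitin genes 2 of 46 (4.35%). Of 63 loci whose descriptions name a channel, transporter or ATPase, 5 were members (7.94%, against 9.48% of the chromosome), and all 5 were higher in DC90.

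Within these classes several members have roles known from stress and transport physiology. LOC_Os12g07830, a chloroplast ascorbate peroxidase that removes hydrogen peroxide, had 8.12 to 23.2 FPKM (median 14.4) in DC90 and 0 to 9.41 FPKM (median 0.640) in 9311, and the only 9311 library above the lowest of DC90 was 12 h replicate 2. LOC_Os12g10280, the aquaporin NIP3-3, had 3.95 to 12.9 FPKM (median 6.35) in DC90 and 0 to 2.68 FPKM (median 0.0815) in 9311, without overlap. LOC_Os12g29220 is described as the sugar transporter SWEET13, with medians of 15.3 FPKM in DC90 and 6.29 FPKM in 9311. LOC_Os12g35610 is described as RbohB, an NADPH oxidase that makes superoxide outside the cell, with medians of 3.17 FPKM in DC90 and 0.753 FPKM in 9311. LOC_Os12g24800 is described as NCED2 in one source and as a zeaxanthin cleavage dioxygenase in another, and NCED enzymes catalyse the committed step of abscisic acid synthesis. It had 0.0339 to 9.56 FPKM (median 1.51) in DC90 and 0 to 2.09 FPKM (median 0.158) in 9311, with overlap, and leaving out any of 4 single libraries put it outside the rule. LOC_Os12g26880, the copper protein uclacyanin 1, was among the most abundant members, with medians of 75.7 FPKM in DC90 and 23.9 FPKM in 9311. LOC_Os12g03040, a NAC transcription factor (medians of 3.33 FPKM in DC90 and 7.25 FPKM in 9311), and LOC_Os12g26290, an alpha-dioxygenase that oxidises fatty acids (8.54 FPKM in DC90 and 25.9 FPKM in 9311), were lower in DC90. LOC_Os12g33180 (1.03) led a mixed cluster at medians of 37.7 FPKM in DC90 and 17.3 FPKM in 9311.

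The rule cuts through a continuous range. Just inside it lay LOC_Os12g10630 (1.01), LOC_Os12g12514 (1.02) and LOC_Os12g31410 (1.02) among the higher and LOC_Os12g08180 (−1.01), LOC_Os12g07640 (−1.01) and LOC_Os12g30555 (−1.01) among the lower members. Just outside lay LOC_Os12g13910 (0.99), LOC_Os12g36320 (0.98) and LOC_Os12g08670 (0.98), and LOC_Os12g09120 (−0.96), LOC_Os12g38330 (−0.94) and LOC_Os12g05080 (−0.93).

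The rule's means include the chilled timepoints, so a response in 1 genotype could itself add to the difference that chose a locus, and the responses below describe the members and are not independent of their choice. DEGs (differentially expressed genes) were loci that changed by 2 or more on the log2 scale against 0 h of the same genotype, with adjusted p not above 0.001 (edgeR's quasi-likelihood test, Benjamini-Hochberg). At 72 h, 12 members were DEGs in DC90, 4 rising and 8 falling (10.3%), where 7.73% of all tested loci were DEGs (2.67% rising and 5.06% falling). In 9311, 17 members were DEGs, 6 rising and 11 falling (14.7%), where 11.5% of all loci were (4.56% rising and 6.9% falling). Both shares were near the background, and 4 members were DEGs in both genotypes. Of the 116, 95 passed the rule also without 0 h and 72 h, of which 10 (10.5%) were DEGs in DC90 and 13 (13.7%) in 9311. The DEGs LOC_Os12g03040, LOC_Os12g10630, LOC_Os12g10710, LOC_Os12g15680 and LOC_Os12g18560 were among the others. Of the DEGs, LOC_Os12g10630, LOC_Os12g13890, LOC_Os12g18560, LOC_Os12g36620 and LOC_Os12g36630 left the rule without 12 h and 24 h. LOC_Os12g35330 (0.68) and LOC_Os12g42190 (−0.97), which were not DEGs at 72 h, left it too. The median absolute log2 fold change of all 116 was 0.80 in DC90, against 0.75 over all loci, and 1.58 in 9311, against 0.89 over all loci. Without replicate 1, 0 members remained DEGs at 72 h in DC90 and 1 in 9311, and without replicate 3 there were 2 in DC90 and 4 in 9311. Without 9311 at 0 h replicate 3 alone there were 10 in 9311. The summed FPKM of the leaf markers was 358 to 995 at 72 h and 12117 to 16421 at 0 h in DC90, and 124 to 732 at 72 h and 13789 to 17408 at 0 h in 9311. The summed FPKM of the root markers was 19.5 to 27.7 at 72 h and 34.1 to 371 at 0 h in DC90, and 2.41 to 9.72 at 72 h and 102 to 149 at 0 h in 9311, and the part of these shifts in the members' changes was not tested.

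The rising members included the NAC factor LOC_Os12g03040, which had 8.87, 15.8 and 7.25 FPKM at 72 h and 0.373, 0.197 and 1.49 FPKM at 0 h in DC90 (log2 fold change 3.65 ± 0.57 SE, adjusted p = 1.5e-05, edgeR). In 9311 it had 29.1, 33.0 and 33.6 FPKM at 72 h and 3.01, 1.99 and 2.52 FPKM at 0 h (3.72 ± 0.56 SE, adjusted p = 7.53e-06, edgeR). All chilled libraries lay above all unchilled ones in both genotypes. LOC_Os12g08930, without a described function, rose by 5.12 on the log2 scale in DC90 and 5.21 in 9311. LOC_Os12g13890, a CACTA transposon protein (4.67), and LOC_Os12g18560, a pectinesterase inhibitor (4.20), were DEGs in DC90. In 9311 they changed by 2.97 and 2.76, short of the DEG threshold (adjusted p = 0.0182 and 0.00548, edgeR). In 9311 the laccase LOC_Os12g15680 rose to 27.7, 29.9 and 41.3 FPKM at 72 h, against 0.258, 0.225 and 0.622 FPKM at 0 h (6.61 ± 1.21 SE, adjusted p = 7.63e-05, edgeR). In DC90 it changed by 2.58, short of the DEG threshold (adjusted p = 0.0422, edgeR). For these loci the difference of the 72 h response had adjusted p of 0.873, 0.846 and 0.337 (edgeR), in the order named.

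Falling members in DC90 included LOC_Os12g16690, described as an ORTHRUS-type E3 ubiquitin ligase, with 0.171, 0.0963 and 0.0116 FPKM at 72 h and 0.950, 3.48 and 1.73 FPKM at 0 h (−4.45 ± 0.77 SE, adjusted p = 5.97e-05, edgeR). In 9311 its change was −2.19, short of the DEG threshold (adjusted p = 0.00854, edgeR). LOC_Os12g34802, the locus at 0 in 9311, fell by 3.63 in DC90, and LOC_Os12g14220 fell by 3.45 in DC90 and 4.24 in 9311. Uclacyanin LOC_Os12g26880 fell by 2.74 in DC90 and 2.62 in 9311. In 9311, NCED2 LOC_Os12g24800 was at 0 FPKM in all 3 libraries at 72 h and at 1.39, 1.45 and 0.357 FPKM at 0 h (adjusted p = 2.41e-05, edgeR), so its fitted fold has no bound. In DC90 its change was −3.22, short of the DEG threshold (adjusted p = 0.00558, edgeR). LOC_Os12g07430 fell by 5.27 and the ascorbate peroxidase LOC_Os12g07830 fell by 4.53 in 9311. The peroxidase had 0, 0.067 and 0 FPKM at 72 h and 0.453, 0.676 and 0.640 FPKM at 0 h in 9311. The 9311 libraries at 72 h held 0, 5 and 0 counts of LOC_Os12g07430 and 0, 4 and 0 of LOC_Os12g07830, so both folds are uncertain. In DC90 both changed by −0.67 (adjusted p = 0.55 and 0.306, edgeR). The difference of the 72 h response had adjusted p (edgeR) of 0.532 for LOC_Os12g16690 and 0.225 for LOC_Os12g24800. It was 0.207 for LOC_Os12g07430 and 0.101 for LOC_Os12g07830.

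After 24 h of recovery, at the same time of day as 0 h, 0 members were DEGs in DC90 and 0 in 9311 by edgeR, where 1.11% of all loci were DEGs in DC90 (0.0479% rising and 1.06% falling) and 0.235% in 9311 (0.0392% rising and 0.196% falling). In DC90 an unadjusted p under 0.05 was found for 11 members, where 18.6% of all loci had one. At the DEG thresholds DESeq2 called 4 members in DC90 (2.4% of all loci) and limma on log2(FPKM + 1) called 2 (1.11% of all loci). In 9311 an unadjusted p under 0.05 was found for 13 members (13.7% of all loci), and DESeq2 called 1 (0.945% of all loci) and limma 1 (0.366% of all loci).

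A difference of response between the genotypes was tested as the interaction of genotype and timepoint. By an F test over the 5 later timepoints, 22 members had an adjusted p of at most 0.05 (19.0%), where 1.5% of all loci did. Of these 22, 17 were higher and 5 lower members, and 13 belonged to the 28 members near 0 in the median 9311 library. Without the 12 h and 24 h timepoints 5 members passed: LOC_Os12g07430, LOC_Os12g18640, LOC_Os12g18729, LOC_Os12g28270 and LOC_Os12g36630. Without 9311 at 12 h replicate 2 alone there were 24, with 21 of the 22 and 12 of those 13 among them. Without replicate 1 there were 2, and without replicate 3 there were 0.

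For the change at 72 h alone, 3 members differed between the genotypes (edgeR, adjusted p of at most 0.05), where 0.152% of all loci did (0.0958% higher and 0.0566% lower in DC90). LOC_Os12g36630, the universal stress protein, had 10.9, 19.6 and 11.6 FPKM at 72 h and 57.1, 13.6 and 29.2 FPKM at 0 h in DC90. In 9311 it had 133, 168 and 151 FPKM at 72 h and 48.8, 13 and 33.6 FPKM at 0 h, and rose by 2.30. The difference of the 2 responses was −3.72 ± 0.69 SE (adjusted p = 0.0186, edgeR). LOC_Os12g28270, described as a 5-methylthioadenosine/S-adenosylhomocysteine deaminase, had 26.4, 12.5 and 22.0 FPKM at 72 h and 23, 14.7 and 21.5 FPKM at 0 h in DC90, which overlap. In 9311 it fell to 1.47, 1.69 and 1.51 FPKM at 72 h, against 6.70, 13.2 and 7.57 FPKM at 0 h, a difference of response of 2.39 ± 0.43 SE (adjusted p = 0.0152, edgeR). LOC_Os12g18729 had 2.42, 2.26 and 2.13 FPKM at 72 h and 1.24, 1.08 and 1.85 FPKM at 0 h in DC90. In 9311 it had 5.85, 7.65 and 5.13 FPKM at 72 h and 17.8, 15.3 and 15.6 FPKM at 0 h (1.79 ± 0.34 SE, adjusted p = 0.02, edgeR). No member was called without replicate 1 or without replicate 3, and 8 were called without replicate 2. No member differed in its change at 96 h by edgeR, where 0.0131% of all loci did (0.00436% higher and 0.00871% lower in DC90). An unadjusted p under 0.05 was found for 14 members (9.17% of all loci), DESeq2 called 4 (0.954% of all loci), and limma on log2(FPKM + 1) called 1 (0.0218% of all loci).

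**Figure D5:**
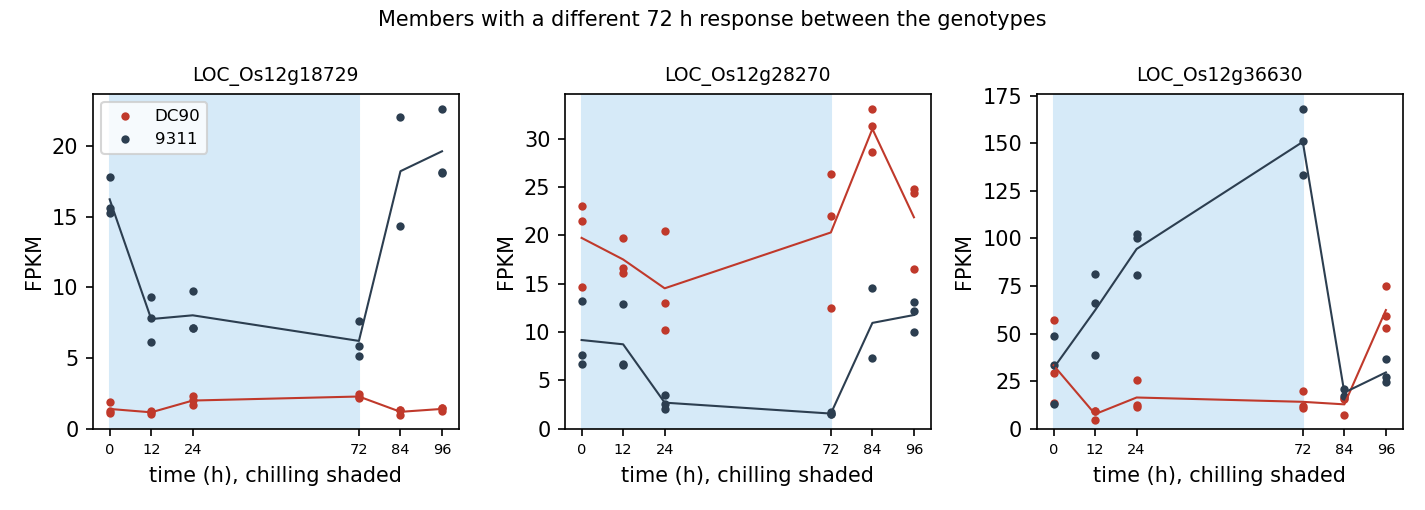
FPKM (y axis) of LOC_Os12g18729, LOC_Os12g28270 and LOC_Os12g36630 by time (x axis, chilling shaded) in DC90 (red) and 9311 (dark), with a point for each library and lines through the means. At 72 h LOC_Os12g36630 lies between 10.9 and 19.6 FPKM in DC90 and between 133 and 168 FPKM in 9311.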

How the data were processed

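RNA-seq libraries of whole rice seedlings were analysed from the deposited table, in which the authors give read counts and FPKM values per locus. Per the paper, reads were aligned with HISAT2 to Release 7 of the Rice Genome Annotation Project. The submitters' processing notes name Bowtie 0.12.2 and the build mm8, a mouse build, and the counting tool is not given in the sources used here. All 35 libraries were used, and FPKM minima follow the deposited FPKM. The members and all lists were chosen with earlier results of these data known. Position is the order of locus numbers. Of 172 expressed chromosome 12 loci with a gene ID, 163 were found in RefSeq. Of these, 162 lay on chromosome 12, only 10 of them members, and 160 of 161 neighbouring pairs kept that order. The order of the other members was not checked. Apart from this check, no genome coordinates or sequences were used.

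Counts were fitted in R 4.3.3 with edgeR 4.0.16 (TMM, glmQLFit and glmQLFTest, 12 groups in a single fit, no replicate block), with Benjamini-Hochberg adjustment over 22961 loci. DESeq2 1.42.0 and limma 3.58.1 were alternatives. Tables and figures used Python 3.11.15, pandas 2.3.3, numpy 2.4.6 and matplotlib 3.10.9. On simulated counts of 22961 loci with changes of 3 on the log2 scale, 171 of 200 were recovered at 72 h in DC90 (0 false), 85 of 100 at 72 h in 9311 (0 false) and 71 of 100 in the interaction (1 false). All other simulated loci had equal means in all groups. The spread followed the fitted trend, changed loci were drawn above a level minimum, and no outlying library was simulated. These counts therefore do not give the error rate in the real libraries. Lower bounds set a floor of 3 counts per library in CPM, and cover counting error only, not reads that fail to align. Named loci were the 10 highest and 10 lowest differences, the most abundant member of each cluster and the 5 most abundant members, up to 3 responding loci in each direction, those beside the threshold and opposite neighbours. Other loci were named after their values were seen for their described roles or because a few libraries decided them. Leaving out libraries or timepoints that stand apart, and the rule without the timepoints of a response, were chosen after seeing the data.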

Additional observations from a re-analysis of the deposited data

Results flagged for a closer look

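The interaction of genotype and timepoint passed an adjusted p of 0.05 (edgeR, F test) for 22 members, with 2 left without replicate 1 and 0 without replicate 3. Among these, 13 were near 0 in the median 9311 library. Their adjusted p was 0.000854 for LOC_Os12g08025, 0.00135 for LOC_Os12g20390, 0.00147 for LOC_Os12g13295, 0.00209 for LOC_Os12g16290 and 0.00273 for LOC_Os12g27370. It was 0.00602 for LOC_Os12g19100, 0.00916 for LOC_Os12g22145, 0.0277 for LOC_Os12g21784, 0.0285 for LOC_Os12g14059 and 0.0300 for LOC_Os12g21840. It was 0.0330 for LOC_Os12g23150, 0.0382 for LOC_Os12g27335 and 0.0425 for LOC_Os12g28520. None of these 13 passed without the 12 h and 24 h timepoints (0.0536 to 1). Without 9311 at 12 h replicate 2 alone, which held the most of these transcripts, 12 of the 13 passed, with LOC_Os12g28520 at 0.0539 outside. Leaving out the 9311 libraries at 12 h replicates 1 and 3 and at 24 h replicates 2 and 3 singly was not run for the interaction.

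Of the other 9 members, LOC_Os12g18729 (0.00135), LOC_Os12g36630 (0.00147), LOC_Os12g28270 (0.00602), LOC_Os12g07430 (0.0210) and LOC_Os12g18640 (0.0311) passed also without those timepoints. LOC_Os12g18640, a pentatricopeptide repeat protein, had up to 4.20 FPKM in DC90 and up to 26.7 FPKM in 9311. LOC_Os12g07830 (0.00136), LOC_Os12g36620 (0.0249), LOC_Os12g10280 (0.0268) and LOC_Os12g07010 (0.0311) did not. For LOC_Os12g07010 the adjusted p stood beside a DC90 library, 24 h replicate 1, at 210 FPKM, against at most 0.131 FPKM in the other DC90 libraries. Without that library it did not pass, and its adjusted p ranged from 0.00017 to 0.593 over its alternatives (edgeR, DESeq2 and limma). Groups of 3 or fewer libraries were not searched for outlying libraries.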

How the results depend on the processing

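The count of members was within 1.5 times of 116 in all settings except a fold threshold of 2 (41 members, 24 higher and 17 lower, with 2 clusters of 7 members). With no FPKM minimum there were 6 clusters with 19 members, with 0 loci allowed between neighbours 7 clusters with 22 members, and with 5 allowed 94 members lay in clusters. A pseudocount of 0.1 FPKM gave 163 members. Leaving out replicates or single libraries gave 109 to 128 members (60 to 67 higher, 45 to 62 lower) and 14 to 19 clusters with 55 to 72 members. The difference changed sign for LOC_Os12g02320 with medians (0.88) and for LOC_Os12g36880 without replicate 3 (0.94, against −2.44 without replicate 1) and without 9311 at 84 h replicate 3 (0.42). For single named loci, 3412 of 3821 comparisons were scored as unchanged, 189 as moved, 217 as weaker and 3 changed sign. For a difference between the genotypes, unchanged meant within an error computed from the values with single libraries left out. Leaving out 1 library could therefore hardly exceed it, and these scores do not measure stability. For a response or an interaction, unchanged meant still past the thresholds.

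At 72 h in DC90, 20 members were called by DESeq2 and 30 at thresholds of 1 and 0.05, and 0 to 13 without replicates or libraries. In 9311, 42 were called at these thresholds, 8 with only the groups of 9311 in the fit, and 1 to 18 without replicates or libraries, of which 10 without 9311 at 0 h replicate 3. At 96 h in DC90, DESeq2 called 4, limma on log2(FPKM + 1, 0.5 or 0.1) 2, the looser thresholds 3, the fit of DC90 alone 1, leaving out 9311 at 12 h replicate 2 gave 1, and leaving out 12 h and 24 h gave 1, so the range without replicates was 0 to 1. In 9311 DESeq2, limma and the looser thresholds each called 1, and 0 to 0 without replicates. The interaction was called for 51 members by DESeq2, 53 and 44 by limma with pseudocounts of 1 and 0.5, 5 without 12 h and 24 h, and 0 to 24 without replicates or libraries. At 72 h it was 15 by DESeq2, 13, 10 and 6 by limma with pseudocounts of 1, 0.5 and 0.1, and 0 to 8 without replicates. At 96 h it was 4 by DESeq2 and 1 by limma with pseudocounts of 1 and 0.5, and 0 to 0 without replicates.

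Replicate numbers did not pair the samples (correlations from −0.22 to 0.22, 2 of 21 over 0.1). With the replicate block 11 members were called at 72 h in DC90, 15 in 9311 and 19 in the interaction, and no sample number was used to pair. Leaving out a replicate number also leaves 2 samples per group or fewer, and 1 in 9311 at 84 h without replicate 1 or 3, which is then assumed to vary like the other groups.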
